A study of Drosophila subpalustris with 2 samples.

Results

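Block 5 is a short stretch of 97 gene models in the draft annotation of Drosophila subpalustris, set beside 17619 models in the other blocks (0.548% of all models). Its members were taken from the order of the count tables alone. A new block starts wherever the number in the locus tag falls, and the fifth of the 7 blocks this gives runs from ACLKA7_005118 to ACLKA7_005214. No count entered that rule. The study sequenced polyadenylated RNA from whole adult flies as evidence for gene prediction on a draft assembly. Its 2 libraries form 1 group, replicate 2 and replicate 1, each from 10 to 20 adults of both sexes pooled together and described as a biological replicate. Stocks were kept at room temperature on a cornmeal, sucrose and yeast medium, with no treatment or genetic alteration named for either pool. The age of the flies and the balance of males and females in each pool are not stated in the sources used here.

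A gene model is a predicted transcribed unit, and its locus tag is a serial name assigned along an annotation. Drosophila genes lie on chromosome arms called Muller elements, of which 1, element F or the dot chromosome, is much smaller than the others and in D. melanogaster is rich in repeats and largely heterochromatic yet carries active genes. The tables name no chromosome, so no block is assigned to an element here. They also pair no locus tag with a gene name, so the members are described by tag, no role is given to any of them, and the labelled whole body source was not checked against marker genes.

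The 97 tags of block 5 were consecutive, with no number skipped. The other blocks were made of 2 to 15 separate runs of consecutive tags, and block 5 was a single run. The nearest tags outside it on either side, ACLKA7_005117 and ACLKA7_005215, are listed in block 7, as were all 20 nearest tags on each side. Of those 20, 1 before and 1 after block 5 reached 10 counts in both libraries.

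Reads were counted on the annotated strand (sense) and on the opposite strand (antisense). Over all models the sense counts came to 25544996 for replicate 2 and 26141490 for replicate 1. Levels are given as CPM, counts per 1000000 sense counts. CPM is not divided by transcript length, which the tables do not hold, so differences in CPM between models include differences in length. Detection was set at a minimum of 10 sense counts per library, equal to 0.391 CPM (replicate 2) or 0.383 CPM (replicate 1).

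Of the 97 models of block 5, 80 (82.5%) were detected in both libraries. The share detected was 69.4% over all models, and in blocks 1 to 4 and 6 it lay between 69.5% and 80.0%. Block 5 thus lay above the highest of these blocks, a difference given without a test. A further 2 models reached 10 counts in replicate 1 alone. ACLKA7_005129 had 1 count in replicate 2 and 14 in replicate 1, and ACLKA7_005178 had 2 and 43. Just inside the limit, ACLKA7_005130 had 10 counts in replicate 2 and 25 in replicate 1.

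The undetected models lay mostly at one end of the block. Its last 12 models, ACLKA7_005203 to ACLKA7_005214, held no more than 3 sense counts in either library, and 7 of them had none. Together they had 7 sense counts in replicate 2, against 3 in replicate 1, with 4 and 7 antisense counts. Of the 85 models before them, 80 (94.1%) were detected. This end stretch was singled out after its counts were seen. Each of the other blocks began with an undetected stretch, of 1 to 28 models, and block 4 ended with one of 32. Block 6 held 10 stretches of 12 or more undetected models.

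Of the models of block 5, 8 (8.25%) had no sense count in either library, against 13.1% over all models and 6.69% to 12.3% in blocks 1 to 4 and 6, so block 5 lay within their range. They were ACLKA7_005170 and, in the end stretch, ACLKA7_005203, ACLKA7_005205, ACLKA7_005206, ACLKA7_005209, ACLKA7_005211, ACLKA7_005212 and ACLKA7_005213. A count of 0 allows up to 3 counts, or 0.117 CPM in replicate 2 and 0.115 CPM in replicate 1. ACLKA7_005170 stood alone, with detected models on both sides of it: ACLKA7_005169 had 51 counts in replicate 2 and 389 in replicate 1, and ACLKA7_005171 had 445 and 4927. The last model of the block, ACLKA7_005214, had 3 counts in replicate 2 and 0 in replicate 1. Reads that align to more than 1 place are assigned to no model in these tables, so a silent model and a model with near-identical copies cannot be told apart.

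**Figure D1:**
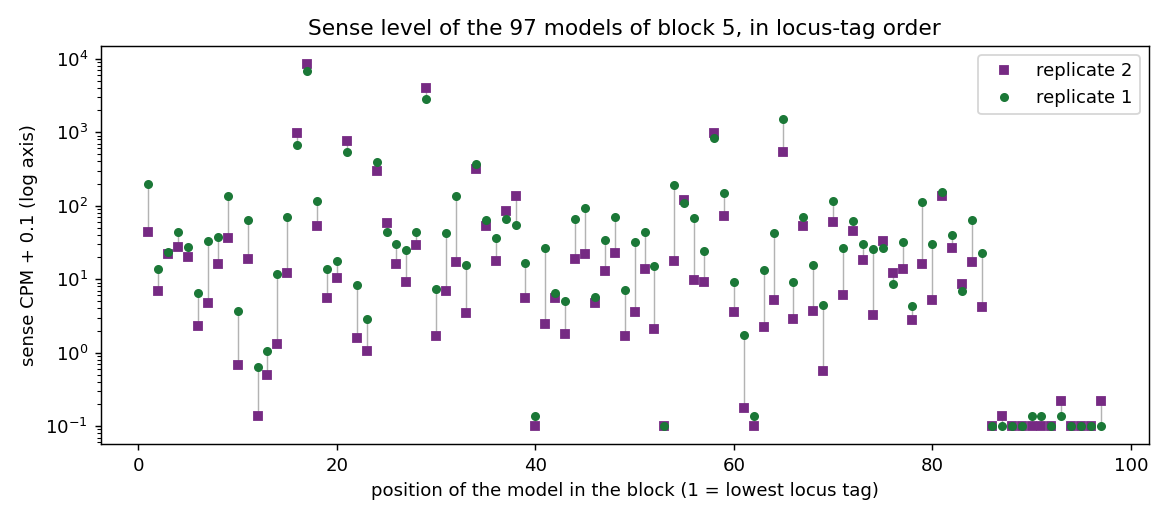
Sense level in CPM plus 0.1 (log axis) of each of the 97 models of block 5 by its position in locus-tag order, with 1 square for replicate 2 and 1 circle for replicate 1, joined by a grey line. Most circles lie above their squares, the high models are scattered along the block, and the last 12 models lie at or near the floor of the axis in both libraries.

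Models of block 5 had a median of 17.5 CPM by their mean level, and medians of 8.42 CPM (replicate 2) and 26.4 CPM (replicate 1) in the single libraries. The other large blocks had medians of 6.45 to 11.99 CPM. The libraries' own medians differ so widely that the order of blocks depends on which is read: in replicate 2 block 5 (8.42 CPM) lay within the range of blocks 1 to 4 and 6 (4.11 to 9.004 CPM), and in replicate 1 (26.4 CPM) above it (7.69 to 13.3 CPM). Over detected models alone the median was 24.0 CPM in block 5 (quartiles 9.65 and 62.3) and 14.3 to 18.1 CPM in those blocks. In mixed whole-body RNA, fewer cells that use a gene and less RNA per cell cannot be told apart.

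Block 5 held 1.78% of the sense counts in replicate 2 (95% exact binomial interval 1.778 to 1.789), and the share was 1.71% in replicate 1 (1.706 to 1.716), a mean of 1.75% ± 0.05 (SD, n = 2). With 0.548% of the models it thus held a larger share of the counts than of the models in both libraries. That share rested on few members. The most abundant model took 47.4% of the block's counts in replicate 2 and 39.1% in replicate 1, and the 10 most abundant took 92.4% and 82.9%. In the large blocks, where a single model is a smaller part of the whole, the top model took 3.94% to 11.2% in replicate 2 and 3.23% to 13.2% in replicate 1. Without ACLKA7_005134, the other 96 models had a share of 0.938% in replicate 2, against 1.04% in replicate 1.

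That model, ACLKA7_005134, reached 8455 CPM in replicate 2, against 6696 CPM in replicate 1 (mean 7576 ± 1244, SD, n = 2). It ranked 7 by mean CPM among all models of the tables. ACLKA7_005146 came next with 4009 CPM in replicate 2, against 2824 CPM in replicate 1 (mean 3416 ± 838, SD, n = 2), rank 30. Both were higher in replicate 2 with either scaling, and the gap between them exceeded the spread between the libraries.

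ACLKA7_005182 reached 532 CPM in replicate 2, against 1534 CPM in replicate 1 (mean 1033 ± 709, SD, n = 2). It was the only one of the 6 models above 500 CPM that was higher in replicate 1, with either scaling. ACLKA7_005175 stood at 976 CPM in replicate 2, against 826 CPM in replicate 1. ACLKA7_005133, the direct neighbour of ACLKA7_005134, had 976 and 663 CPM, and ACLKA7_005138 had 750 and 536 CPM. The means of ACLKA7_005182, ACLKA7_005175 and ACLKA7_005133 (1033, 901 and 820 CPM) lay closer together than the SD of the first, so their order is not resolved.

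The next 4 members by level had means of 120 to 343 CPM. ACLKA7_005151 had 314 CPM in replicate 2 and 371 CPM in replicate 1, and ACLKA7_005141 had 292 and 389 CPM. ACLKA7_005198 had 134 CPM in replicate 2 and 155 CPM in replicate 1. These 3 were lower in replicate 2 by CPM and higher there with TMM scaling (log2 ratios of 0.28, 0.10 and 0.31), so their direction depends on the scaling. ACLKA7_005118, the first model of the block and the tenth by level, differed more, at 44.2 CPM in replicate 2, against 196 CPM in replicate 1. In all, 3 members reached 1000 CPM, 10 lay between 100 and 1000, 46 between 10 and 100, 20 between 1 and 10, and 18 below 1.

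The lowest detected members were ACLKA7_005130 (0.391 CPM in replicate 2 and 0.956 in replicate 1), ACLKA7_005140 (0.940 and 2.79), ACLKA7_005127 (0.587 and 3.56), ACLKA7_005186 (0.470 and 4.28) and ACLKA7_005160 (1.68 and 5.01). All 5 had more counts in replicate 1, from 25 counts for ACLKA7_005130 to 131 for ACLKA7_005160.

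The less abundant members were mostly higher in replicate 1. Ratios of replicate 2 to replicate 1 were scaled by the trimmed mean of M-values (TMM), which sets the bulk of all models near a log2 ratio of 0 and raises each log2 ratio by 0.52 over scaling by library totals. Of the 66 members of 1 to 100 CPM, 53 were higher in replicate 1 with TMM and 60 with library totals. Of the 13 members of 100 CPM or more, 9 were higher in replicate 2 with TMM and 6 with library totals. In the other blocks, with TMM, 56.4% of models of 1 to 10 CPM were higher in replicate 1, and 49.8% of those of 10 to 100 CPM. The share was 39.0% at 100 to 1000 CPM and 9.77% above 1000 CPM. Most models of 100 CPM or more outside the block thus also leaned to replicate 2 with TMM. Of the 59 members with a mean of 10 CPM or more, 19 had the higher value in replicate 2 with TMM and 40 (67.8%) in replicate 1. The share higher in replicate 1 was 43.3% to 52.5% in blocks 1 to 4 and 6. With library totals the split was 11 and 48 (81.4%), against 64.1% to 73.1% in those blocks, which then also leaned to replicate 1. The median TMM-scaled log2 ratio of the 59 was -0.62 (quartiles -1.58 and 0.17), and the medians of those blocks lay between -0.07 and 0.15. With library totals the median was -1.14 in block 5 and -0.59 to -0.36 in those blocks, so the sign of the other blocks' medians depends on the scaling, and block 5 lay below each of them with either scaling.

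Outside block 5, 9.77% of models above 1000 CPM were higher in replicate 1 and the rest in replicate 2, so members were set beside models of like level. Among members of 10 to 100 CPM, 46 in number, the median log2 ratio was -0.87, with 78.3% higher in replicate 1. In blocks 1 to 4 and 6 the same class had medians of -0.14 to 0.10, with 45.8% to 55.5% higher in replicate 1. With library totals this class stood at -1.39 in block 5 and at -0.66 to -0.42 in those blocks. Among the 20 members of 1 to 10 CPM the median was -1.39, against -0.45 to -0.09 in those blocks. The 10 members of 100 to 1000 CPM had a median of 0.29, within the blocks' range of 0.12 to 0.42, and with library totals these signs flip, to -0.22 in block 5 and -0.39 to -0.10 in the blocks. The 3 members above 1000 CPM had a median of 0.85, below the blocks' range of 1.00 to 1.22. These class medians carry no test, since the series has 1 library on each side of the ratio.

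**Figure D2:**
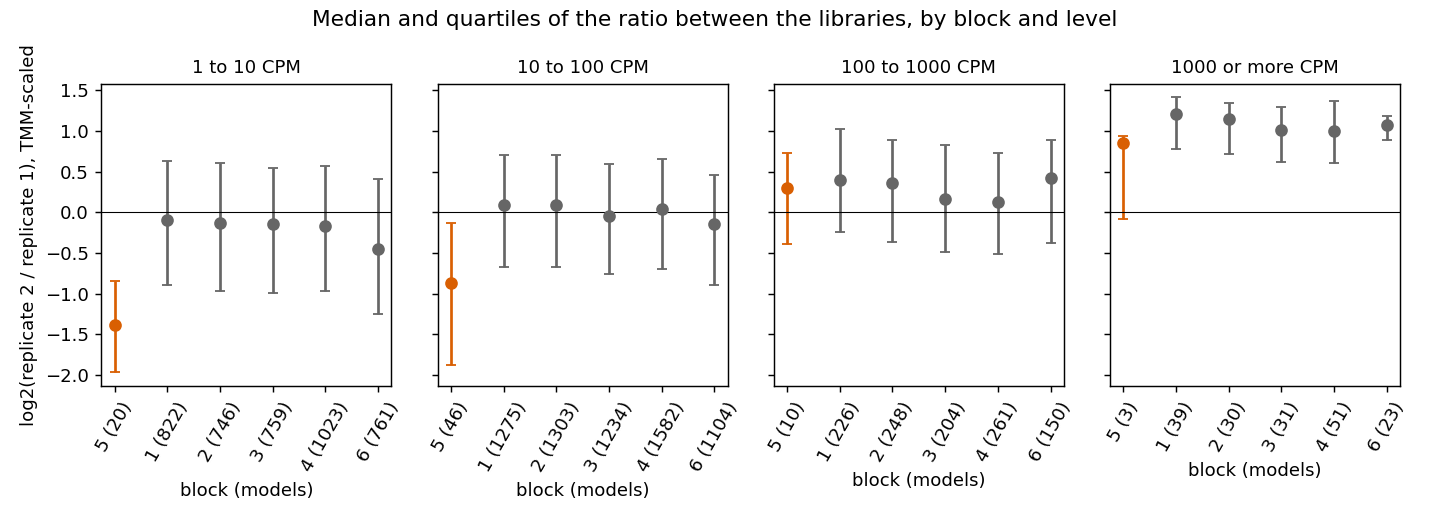
Median (point) and quartiles (bars) of the TMM-scaled log2 ratio of replicate 2 to replicate 1 in block 5 (orange, left) and in blocks 1 to 4 and 6 (grey), in 4 panels by mean CPM; numbers of models are in parentheses. The block 5 medians of -1.39 and -0.87 lie below those of the other blocks in the panels of 1 to 10 and 10 to 100 CPM, and the median of 0.29 lies among them at 100 to 1000 CPM.

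The same split appeared in summed counts. The 6 members with a mean above 500 CPM held 401001 counts in replicate 2 and 341938 in replicate 1, and the other 91 held 54606 and 105456. As shares of each library the 91 made up 0.214% of replicate 2 and 0.403% of replicate 1, which with library totals is a log2 ratio of -0.92. Models below 500 CPM in blocks 1 to 4 and 6 had log2 ratios of -0.48 to -0.30 on the same scale. For models of 500 CPM or more the log2 ratio was 0.26 in block 5 and 0.18 to 0.35 in those blocks. The near-equal share of block 5 in the 2 libraries thus summed a higher count of few abundant members and a lower count of the rest in replicate 2.

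An exact binomial test, two-sided and adjusted by Benjamini-Hochberg over the 13241 models with enough counts, asked whether the libraries differed by more than sampling. It compares these libraries and no conditions. Of 82 members with enough counts to test, 73 (89.0%) passed an adjusted p of 0.05, against 77.0% over all models tested. With TMM scaling, 17 of the 82 passed with the higher scaled value in replicate 2 (20.7%, against 38.0% over all models tested). The other 56 that passed had the higher scaled value in replicate 1 (68.3%, against 39.0%). Some of the 17, such as ACLKA7_005141 (7461 and 10180 counts), had fewer counts in replicate 2 than in replicate 1. With library totals the split in block 5 was 11 against 67 (13.4% and 81.7% of those tested). Over all models it was 2809 against 7690 (21.2% and 58.1%), so with this scaling the whole table also leaned to replicate 1. Most models of the whole table passed this test, so passing it does not set a member apart.

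At a mean of 10 CPM or more, 29 of 59 members (49.2%) differed at least 2-fold, against 32.1% over all models. Of the members, 5 (8.47%) passed 2-fold towards replicate 2 and 24 (40.7%) towards replicate 1. The shares over all models were 15.3% and 16.8%. With library totals these numbers were 1 (1.69%) and 33 (55.9%) in block 5, against 4.93% and 30.8% over all models.

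**Figure D3:**
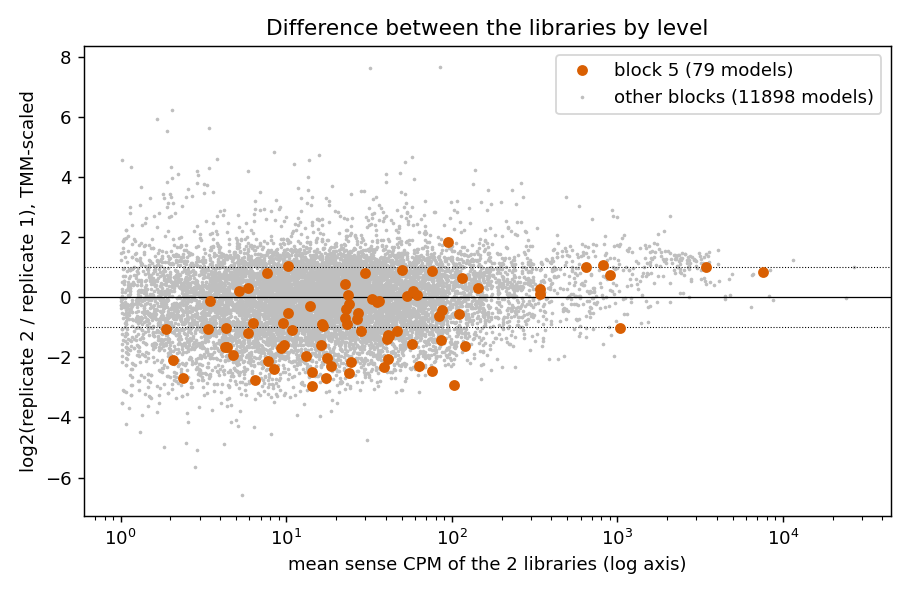
TMM-scaled log2 ratio of replicate 2 to replicate 1 against the mean CPM of the 2 libraries (log axis), for the 79 members of block 5 (orange) and models of the other blocks (grey) with a mean of 1 CPM or more and counts in both libraries; dotted lines mark a 2-fold difference. Below 100 CPM most orange points lie under 0 and 2 lie above the upper dotted line, while 5 of the 6 members above 500 CPM lie above 0.

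Among members with a mean of 10 CPM or more, those furthest towards replicate 1 had 662 to 4927 counts in that library. Below that level ACLKA7_005178 (2 counts in replicate 2 against 43 in replicate 1, log2 ratio -3.88), ACLKA7_005129 (1 against 14, -3.26) and ACLKA7_005131 (31 against 308, -2.76), named after their values were seen, differed as widely on fewer counts. In replicate 2 ACLKA7_005158 had 61 counts, against 687 in replicate 1, so that its log2 ratio was -2.94 (95% counting interval -3.34 to -2.56). ACLKA7_005171 had 445 against 4927 counts and stood at -2.92 (-3.06 to -2.78), and was the most abundant of this set at a mean of 103 CPM. ACLKA7_005167 had 88 counts, against 825 in replicate 1, and stood at -2.68 (-3.01 to -2.36). ACLKA7_005181 (132 and 1114 counts) stood at -2.53 and ACLKA7_005191 (80 and 662 counts) at -2.50. These 5 lay at positions 41, 54, 50, 64 and 74 of the block, with no 2 of them adjacent.

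Towards replicate 2, at the same minimum level, the largest difference was in ACLKA7_005155, with 3453 counts, against 1412 in replicate 1, so that its log2 ratio was 1.84 (95% counting interval 1.75 to 1.93). It was the sole member at least 2-fold higher in replicate 2 with library totals (1.32). ACLKA7_005133 (24935 and 17334 counts) stood at 1.08, ACLKA7_005193 (309 and 222) at 1.03, ACLKA7_005146 (102403 and 73825) at 1.02 and ACLKA7_005138 (19169 and 14010) at 1.00. Of these 5 members, 3 were also among the 10 most abundant. The intervals cover counting error only, and members chosen for an extreme ratio can overstate what another pair of pools would show.

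In 9 tested members the difference between the libraries did not pass the threshold. They were ACLKA7_005122, ACLKA7_005130, ACLKA7_005145, ACLKA7_005159, ACLKA7_005163, ACLKA7_005184, ACLKA7_005189, ACLKA7_005195 and ACLKA7_005199, listed here after their values were seen. ACLKA7_005189 had 1142 counts in replicate 2, against 1622 in replicate 1, for a TMM-scaled log2 ratio of 0.04 (adjusted p = 0.48 by the exact binomial test). ACLKA7_005130 had 10 against 25 counts and stood at -0.77 (interval -1.99 to 0.34, adjusted p = 0.20 by the exact binomial test), an interval that holds a 2-fold difference as well as none. These calls depend on the scaling. With library totals 7 of the 9 passed the threshold, all higher in replicate 1, and ACLKA7_005159 and ACLKA7_005163 did not. The log2 ratio of ACLKA7_005189 was then -0.47, and that of ACLKA7_005130 -1.29.

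Levels of the members ranked alike in the 2 libraries despite these differences. Over the 82 members that reached 10 counts in either library, Pearson r was 0.921 on log2(CPM + 1) and Spearman rho 0.878, across models that share the same 2 libraries. In blocks 1 to 4 and 6, r was 0.899 to 0.911 and rho 0.879 to 0.897. Block 5 was therefore above their range in r and, by less than 0.01, below it in rho. Without ACLKA7_005134, an exclusion added after seeing the data, r was 0.908 and lay within their range. The other blocks kept their own most abundant models, so this comparison is not like for like. Its median absolute log2 ratio, over members of 10 CPM or more, was 0.94, and 0.67 to 0.71 in those blocks. The dispersion edgeR assigned per model had a median of 0.233 in block 5 and 0.233 to 0.234 in those blocks. With 1 residual degree of freedom these estimates are drawn almost wholly to a common value and carry little about single blocks.

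Antisense counts in block 5 came mostly from 1 member. Over the block they made up 1.28% of strand-specific counts in replicate 2 (95% exact binomial interval 1.25 to 1.31), and the share was 0.818% in replicate 1 (0.792 to 0.845). The whole libraries had 0.845% and 0.831%. Without ACLKA7_005181 the shares in block 5 were 0.231% in replicate 2 and 0.318% in replicate 1. The source of antisense counts was not tested.

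ACLKA7_005181 carried 4864 antisense counts in replicate 2, against 2268 in replicate 1, beside 132 and 1114 sense counts. Antisense counts thus made up 97.4% of its strand-specific counts in replicate 2 and 67.1% in replicate 1. The 2 strands moved in opposite directions between the libraries, with a log2 ratio of 1.65 for antisense (95% counting interval 1.58 to 1.72) and -2.53 for sense counts (-2.80 to -2.26). Both directions held with library totals, at 1.13 and -3.04. It was the only member whose antisense counts exceeded its sense counts and reached 10 in both libraries, 1 of 97 (1.03%) against 1.39% over all models, and ranked 10 of those 246 models by antisense count. Its neighbour ACLKA7_005182 carried 13581 sense counts in replicate 2 and 40113 in replicate 1. A read that lies on 2 models of opposite strands is missing from the unstranded count, and 34 and 33 counts of ACLKA7_005181, and 34 and 35 of ACLKA7_005182, were missing in replicates 2 and 1. At 0.681% and 0.976% of the strand-specific counts of ACLKA7_005181 this was a small loss, and 0 of the 97 members lost 5% or more in both libraries, against 1.70% over all models. A loss of at least 1 count in each library occurred in 9 members (9.28%), against 6.14% over all models and 3.62% to 7.94% in blocks 1 to 4 and 6. The unstranded column kept 99.3% and 99.0% of the counts of ACLKA7_005181, so nearly all of its antisense counts were shared with no model annotated on the opposite strand.

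ACLKA7_005119, the second model of the block, was the next highest in antisense counts, with 252 in replicate 2, against 281 in replicate 1, beside 172 and 359 sense counts. Antisense was therefore the larger count in replicate 2 (59.4%) and the smaller in replicate 1 (43.9%). None of its counts was missing from the unstranded column in either library. ACLKA7_005141 followed with 100 in replicate 2, against 57 in replicate 1, which was 1.32% and 0.557% of its counts.

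Among the 97 members, 19 (19.6%) had 10 or more antisense counts in both libraries, against 10.7% over all models. In blocks 1 to 4 and 6 the share was 9.78% to 12.5%. This minimum was not adjusted for the level of the models. In 9 of the 80 detected members antisense counts were at least 5% of strand-specific counts in both libraries. This is 11.2% of the detected members, against 8.30% of all detected models and 7.72% to 8.98% in blocks 1 to 4 and 6. Besides ACLKA7_005181 and ACLKA7_005119 they include ACLKA7_005183, next but 1 to ACLKA7_005181, with 40.8% in replicate 2 and 14.8% in replicate 1, and ACLKA7_005150, with 19.6% and 13.8%. ACLKA7_005127 had 37.5% and 8.82%, on 9 antisense counts in each library. ACLKA7_005186 (2 antisense counts in replicate 2 and 10 in replicate 1), ACLKA7_005160 (5 and 12) and ACLKA7_005159 (8 and 11) also passed on few counts. In 34 detected members (42.5%) the share was below 1% in both libraries, against 57.1% of all detected models. The most abundant member, ACLKA7_005134, had 50 such counts in replicate 2, against 38 in replicate 1, which was 0.0231% and 0.0217% of its counts.

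**Figure D4:**
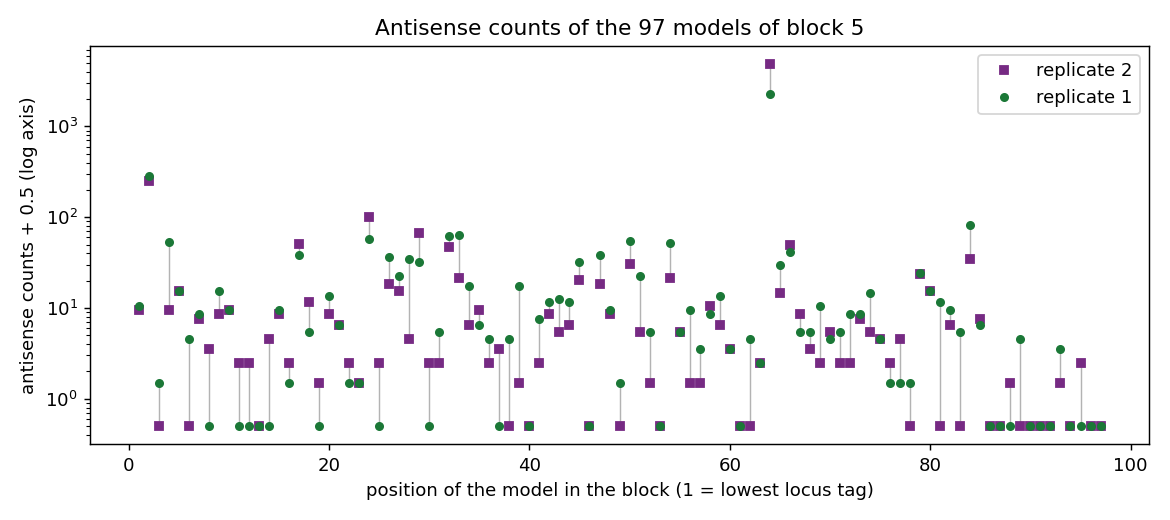
Antisense counts plus 0.5 (log axis) of each of the 97 models of block 5 by position in locus-tag order, with squares for replicate 2 and circles for replicate 1. ACLKA7_005181, at position 64, stands above the others with 4864 and 2268 counts, followed by ACLKA7_005119 at position 2 with 252 and 281.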

How the data were processed

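RNA of whole adult flies was sequenced in 2 strand-specific libraries made from 1 µg of RNA each. Raw counts per gene model were deposited by the authors, 1 table for each library. Reads went through fastp and STAR 2.7.11b, per the submitters' processing notes, and models came from BRAKER 3.0.6, per the series' design text, which used these reads as evidence. Settings and build are not stated in the sources used here, and the last count column was taken as sense, since it held the larger sum. The 4 summary rows, 41.2% of reads in replicate 2 and 38.3% in replicate 1, were left out; 3.12% and 2.00% were multimapping.

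Scaling and dispersion used edgeR 4.0.16 (TMM) and DESeq2 1.42.0 in R 4.3.3; the exact binomial test used scipy 1.17.1 on models with 10 or more counts in sum, with adjustment over the whole table. Intervals (95%, exact) and the floor of 3 counts cover counting error only. The test was run on simulated counts with sampling noise only, the setting it assumes. That run does not show how the test behaves with spread between pools. The dispersion estimate was run on simulated counts of known dispersion. Without a group contrast, the quasi-likelihood test had nothing to compare.

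The block and the rules were chosen with earlier results of these data known. Named models are the 10 highest and 5 lowest detected, those without counts, and the 5 largest ratios each way from 10 CPM. Also named are the 3 with most antisense counts or antisense over sense, and the ends. Models with 50% or more shared counts in both libraries were to be named as well (0 found). ACLKA7_005129 reached 66.7% in replicate 2 alone, on 1 sense and 2 antisense counts. Alternatives covered scaling, count columns, minimums, pseudocounts, thinned or halved counts and single libraries.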

Additional observations from a re-analysis of the deposited data

How the results depend on the processing

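Under 60 alternatives, 47 of the values stayed within the spread used to judge them or within 1.5 times the count. These 47 include the single-library medians of 8.42 and 26.4 CPM, set against 17.5 CPM from both libraries. Leaving out 1 of 2 libraries always moves their mean by less than their SD. Those alternatives therefore say little about how firm a mean is. Detected members ranged from 71 (50 counts) to 83 (1 count), and tested members that differed from 70 to 78. The block's share of the counts was 1.03% without the 100 most abundant models and 0.990% without ACLKA7_005134, an exclusion added after seeing the data. At a mean of 100 CPM or more, 6 members differed 2-fold and the median log2 ratio turned to 0.31. With library totals the median log2 ratio was -1.14, its median size 1.20 and the dispersion 0.291; the dispersion was 0.227 with DESeq2, 0.230 with unstranded counts and 0.231 from 10 CPM, shifts set against a very narrow spread over models. The antisense share, 1.05% on average, was 0.275% without ACLKA7_005181 and, as an added alternative, 0.216% without ACLKA7_005119 as well. The correlation of neighbouring levels, 0.38, was 0.010 over detected members alone. Without replicate 1 and without replicate 2, the values were 80 and 82 detected, 1.78% and 1.71% of counts, medians of 8.42 and 26.4 CPM, and antisense shares of 1.28% and 0.818%.

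For single models, library totals turned the log2 ratio to -0.41 for ACLKA7_005141, -0.24 for ACLKA7_005151 and -0.21 for ACLKA7_005198. Unstranded counts turned it to 1.11 for ACLKA7_005181, whose antisense reads they include. No paired analysis was possible because the series holds 1 group. Ratios need both libraries, and of the 17 undetected members 15 had too few counts in sum to be tested.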

Other observations

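Levels varied along block 5. In successive sets of 10 models the median of mean CPM ran from 8.72 at positions 61 to 70 to 42.9 at positions 31 to 40, among the first 80. The median log2 ratio was 0.10 at positions 21 to 30 and negative in every other such set that held models of 10 CPM or more, the lowest being -1.43 at positions 41 to 50, where 6 of 6 such models were higher in replicate 1. Across 96 pairs of adjacent models, Pearson r of log2(mean CPM + 1) was 0.38, and 0.25 to 0.33 in blocks 1 to 4 and 6. Over 75 pairs of adjacent detected members it was 0.010, a restriction not applied to blocks 1 to 4 and 6. For the log2 ratio, r was 0.16 over 41 adjacent pairs in block 5 and 0.05 to 0.21 in those blocks.

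Counts of block 5 missing from the unstranded column, where models on opposite strands share reads, summed to 91 counts in replicate 2 and 111 in replicate 1, of which ACLKA7_005181 and ACLKA7_005182 made up 34 each in replicate 2. Spearman rho between mean CPM and log2 ratio was 0.37 over 59 members and 0.08 to 0.13 in blocks 1 to 4 and 6.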
